A study of Mus musculus with 13 samples.

Results

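The small leucine-rich proteoglycans (SLRPs) described here were Dcn, Bgn, Aspn, Lum, Fmod, Prelp, Omd, Ogn and Podn. They were chosen by name as a gene family, with their counts in the groups of this experiment already known, so that the levels and changes below describe genes picked with these values in view. They are 9 of the 57010 genes listed for each library. All 9 passed the filter on low counts, which kept genes with at least 10 counts in enough samples and 15 counts in total and left 15034 genes for testing.

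RNA was sequenced from wild-type mouse embryonic fibroblasts (MEFs), primary cultures grown from minced embryos at 3% oxygen, in 4 groups of 3 mice. Control MEFs had no etoposide. Senescent MEFs had been given 2 μM etoposide, a topoisomerase inhibitor that breaks DNA, for 24 h, followed by 5 days of culture, and the groups FV100 and FV300 are senescent MEFs that also received 100 or 300 μg/mL of Fucoidan-FV, the fucoidan of a brown alga (Fucus vesiculosus) and a sulfated polysaccharide, with RNA extracted after 12 h. Mice are numbered 4, 5 and 6 throughout, libraries 5(1) and 5(2) of the mouse 5 controls were summed, and the values are expected counts made by RSEM, with 22782535 to 31278750 counts per library over 13 libraries. MEFs are mixed cultures, and in such bulk RNA fewer cells of a type and less RNA per cell cannot be told apart.

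SLRPs are secreted proteins whose core is a curved array of leucine-rich repeats, and most carry chondroitin, dermatan or keratan sulfate chains. They bind collagen fibrils and set how thick the fibrils grow and how far apart they lie, and several also hold growth factors such as TGF-beta or, once released from the matrix, act on receptors of the innate immune system. Decorin, encoded by Dcn, is a widely used marker of tissue fibroblasts. In connective tissue they are made mainly by fibroblasts, tenocytes, chondrocytes, osteoblasts and, in the cornea, keratocytes.

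The labels were checked first. The cell cycle inhibitor Cdkn1a stood at 468 ± 83.2 CPM (CPM are counts scaled to a common library size with TMM factors, here and below as mean ± SD with n = 3) in control and 1652 ± 187 CPM in senescent MEFs, and the proliferation marker Mki67 at 41.8 ± 25.5 and 1.75 ± 0.985 CPM. Fibroblast markers (Col1a1, Col1a2, Pdgfra, Pdgfrb, Thy1, Vim, Twist1, Prrx1) were all detected, with a summed level of 10523 to 14573 CPM in control, 11065 to 15905 in senescent, 10491 to 12067 in FV100 and 10840 to 11676 in FV300 samples. No gene checks which senescent samples received Fucoidan-FV. The sign of every difference between treated and senescent MEFs, those of Dcn, Cd44 and Mmp13 included, therefore rests on the labels alone. An exchange of labels between the senescent samples and those of a dose would turn the sign of that dose's differences.

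Some libraries stood apart from their groups, and they bear on several of the 9 genes. The libraries were compared over genes above a cutoff on mean count, a smaller set than the genes tested. Over the 974 of these annotated with 1 transcript, the median difference from the average library was −1.35 (log2) in control mouse 6. It was −1.09 in library 5(1) of control mouse 5, −0.92 in senescent mouse 5 and −1.02 in FV300 mouse 4. In FV100 mice 4 and 5 it was 1.00 and 1.10. Over the 5586 genes of that set with 6 or more transcripts it lay between −0.14 and 0.14 in every library. The share of a gene's exonic bases that belong to a single transcript was 100% for Ogn and Lum, 89.5% for Fmod, 81.0% for Prelp, 61.6% for Bgn, 42.7% for Dcn, 24.7% for Podn, 7.83% for Omd and 0.717% for Aspn. Ogn, Lum, Fmod and Prelp were thus the members most like the genes in which these libraries stood apart. The part of these libraries in the group differences was not tested beyond the scalings and omissions given beside the results.

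The libraries 5(1) and 5(2), both of control mouse 5, show the size of the spread between libraries of 1 mouse. Ogn had 18 counts in 5(1) and 1145 in 5(2), which is 79.3 times as many for the size of the library. Dcn had 2 and 35 counts, a ratio of 21.8, and Fmod 221 and 1563 counts, a ratio of 8.81. Aspn differed by 2.60 times, Lum by 1.87 times on 2 and 3 counts, Prelp by 1.14 times and Bgn by 1.01 times, while Podn and Omd were lower in 5(2), with ratios of 0.683 and 0.152. Bgn, the most abundant member, was the most alike between the libraries.

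**Figure D1:**
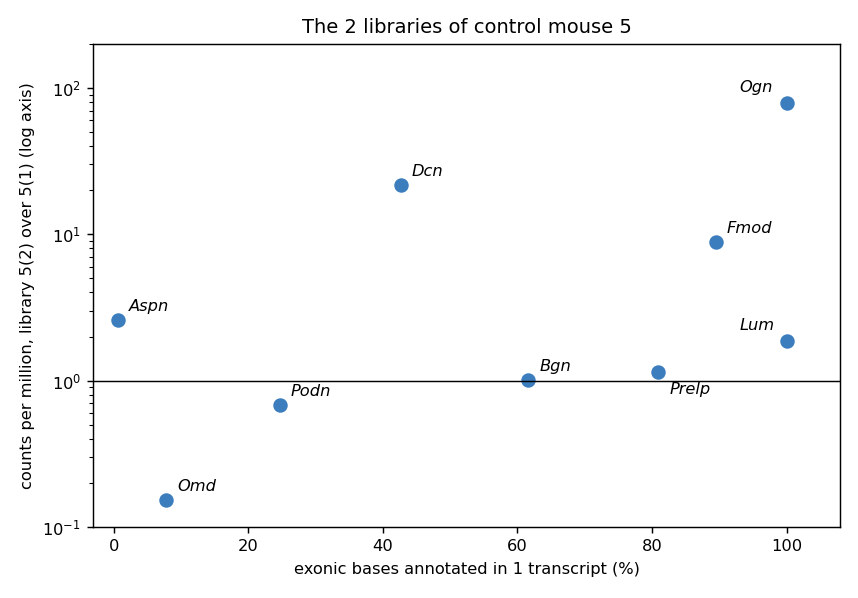
Ratio of the counts scaled to library size between libraries 5(2) and 5(1) of control mouse 5 (y axis, log scale) against the percentage of each gene's exonic bases annotated in 1 transcript; each point is 1 gene. Ogn, at 100%, lies highest with a ratio of 79.3, Dcn stands at 21.8 and Bgn at 1.01, so the ratios do not follow the percentage alone.

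The members lie in 3 groups of neighbours and 2 single loci (GRCm39, GENCODE M39). On chromosome 13, Aspn (ENSMUSG00000021388, 49697609 to 49721057), Omd (ENSMUSG00000048368, 49735938 to 49746298) and Ogn (ENSMUSG00000021390, 49761349 to 49780412) follow each other on the plus strand, with gaps of 14.9 and 15.1 kb, and Ecm2, a related gene that is not a member, ends 9.64 kb before Aspn. On chromosome 10, Dcn (ENSMUSG00000019929, 97315275 to 97358155) ends 42.8 kb before Lum (ENSMUSG00000036446, 97400990 to 97408577), both on the plus strand. On chromosome 1, Prelp (ENSMUSG00000041577, 133837335 to 133857971, minus strand) and Fmod (ENSMUSG00000041559, 133964992 to 133976015, plus strand) lie on either side of Optc. Prelp is 1.06 kb from Optc, while Fmod is 128.7 kb from it with 1 more coding gene between them. Podn (ENSMUSG00000028600, 107871988 to 107889534, minus strand) is on chromosome 4, and Bgn (ENSMUSG00000031375, 72527208 to 72539541, plus strand) on chromosome X.

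Promoter windows of RefSeq (GRCm38.p6, 250 bases before to 50 after the annotated start) were searched on both strands for TGANTCA (AP-1), GGAATG (TEAD), CAGACA (SMAD), GTAAACA (FOXO) and TATAAA. The table holds windows for Bgn, Aspn, Fmod, Prelp, Omd, Ogn and Podn, the last with a pair of windows, and names none for Dcn and Lum. The windows of Aspn, Ogn and Prelp are shown as examples of members that rose in some comparison and have matches. That of Bgn is shown because its level in CPM stayed near that of control. Capitals mark matches, and overlapping matches on opposite strands are marked as 1 run. The windows are Aspn at chr13:49544193-49544492, plus strand; Ogn at chr13:49607765-49608064, plus strand; Prelp at chr1:133921352-133921651, minus strand; and Bgn at chrX:73483351-73483650, plus strand.
Aspn: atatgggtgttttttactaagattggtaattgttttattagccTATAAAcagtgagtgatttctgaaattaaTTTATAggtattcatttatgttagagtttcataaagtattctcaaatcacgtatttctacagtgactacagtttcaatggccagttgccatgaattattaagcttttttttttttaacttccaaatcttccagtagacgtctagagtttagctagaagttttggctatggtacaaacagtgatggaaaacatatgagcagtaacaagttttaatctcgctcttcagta
Ogn: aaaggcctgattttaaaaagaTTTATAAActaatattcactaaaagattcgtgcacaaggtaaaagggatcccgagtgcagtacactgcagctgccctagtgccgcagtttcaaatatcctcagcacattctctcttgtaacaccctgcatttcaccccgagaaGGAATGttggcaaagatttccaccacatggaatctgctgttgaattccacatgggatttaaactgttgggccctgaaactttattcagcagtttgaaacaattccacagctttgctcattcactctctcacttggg
Prelp: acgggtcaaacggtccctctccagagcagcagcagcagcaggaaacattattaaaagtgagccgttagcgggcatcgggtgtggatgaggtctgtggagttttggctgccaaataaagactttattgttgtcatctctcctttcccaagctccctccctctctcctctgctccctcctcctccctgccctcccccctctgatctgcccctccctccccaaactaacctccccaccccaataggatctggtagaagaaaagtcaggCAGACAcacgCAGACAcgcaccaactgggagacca
Bgn: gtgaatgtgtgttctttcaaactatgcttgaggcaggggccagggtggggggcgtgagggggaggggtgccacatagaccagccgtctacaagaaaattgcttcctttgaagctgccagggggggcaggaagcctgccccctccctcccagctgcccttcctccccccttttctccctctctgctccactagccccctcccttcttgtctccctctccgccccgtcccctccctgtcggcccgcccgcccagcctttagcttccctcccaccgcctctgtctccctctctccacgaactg

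The Aspn window holds TATAAA with its first base at −207 and −178 from the start, and the Ogn window at −229 and −227, on opposite strands in both. TATAAA occurs in 13.6% of the 32851 windows of the table. The Ogn window also holds GGAATG at −86, a motif found in 14.7% of windows, and the Prelp window CAGACA at 15 and 25 bases after the start, found in 21.0%. CAGACA also occurs in a Podn window, not shown, at 36 bases after the start. The Bgn window holds none of the 5 motifs, nor do those of Fmod and Omd. TGANTCA (7.81% of windows) and GTAAACA (3.65%) were found in no member window. GC content was 31.0% for Aspn, 42.3% for Ogn, 55.3% for Prelp and 63.7% for Bgn, against a median of 52.7% over all windows. These matches describe letters and are not evidence of binding.

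On the per-length scale of TPM, RSEM's transcript share scaled to gene length, which allows levels of different genes to be compared, the family was dominated by Bgn. Bgn made up 99.2% ± 0.356 of the summed TPM of the 9 genes in control, 96.7% ± 0.745 in senescent, 85.9% ± 0.530 in FV100 and 87.7% ± 0.721 in FV300 MEFs. The other 8 members together stood at 33.2 ± 15.7 TPM in control, 157 ± 79.6 in senescent, 902 ± 21.9 in FV100 and 841 ± 21.3 in FV300 MEFs. The 12 samples fell in order of these groups without overlap between control, senescent and treated samples. FV100 and FV300 lay close together, at 884 to 926 and 820 to 862 TPM. TPM are not scaled with TMM factors, and ratios of treated to control means were larger in TPM than in CPM for every member.

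**Figure D2:**
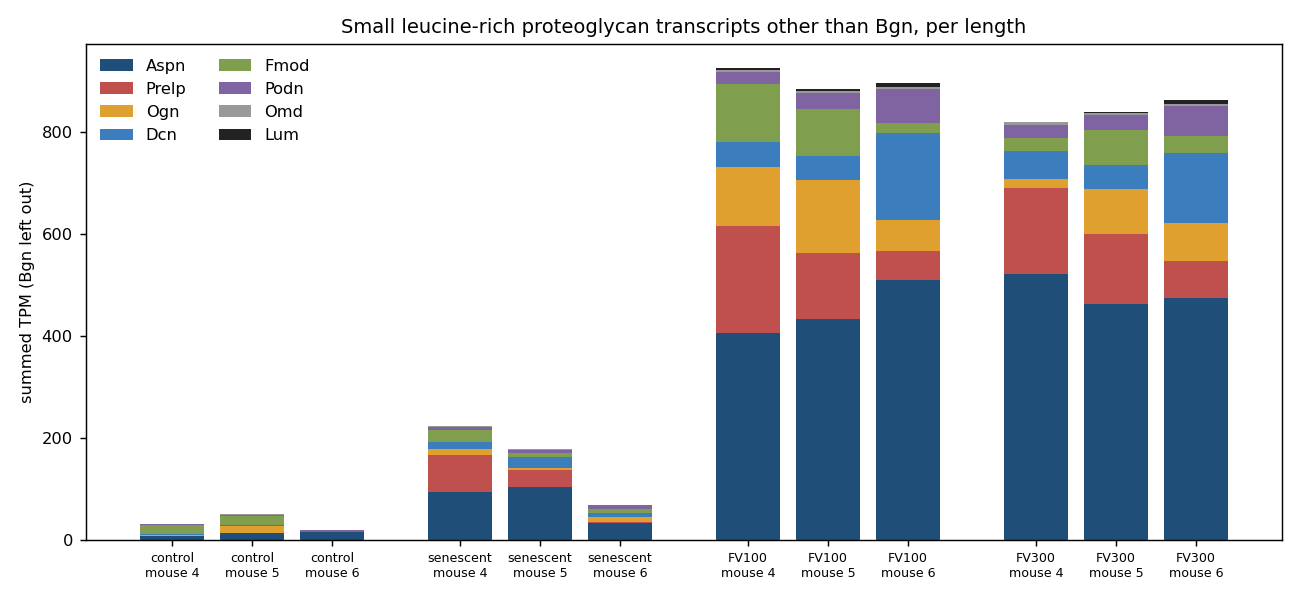
Summed TPM of the 8 members other than Bgn in each of the 12 samples, stacked by gene (y axis, TPM; x axis, group and mouse). Control samples reach at most 49.6 TPM, senescent samples 68.5 to 223 TPM and Fucoidan-FV samples 820 to 926 TPM, with Aspn the largest share in every treated sample.

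The order of the members below Bgn differed between groups. In control MEFs Fmod (12.3 ± 9.79 TPM) and Aspn (11.6 ± 4.49) came next, followed by Ogn (5.61 ± 7.17), Podn (1.86 ± 1.23), Dcn (0.915 ± 0.377), Prelp (0.645 ± 0.613), Omd (0.287 ± 0.359) and Lum (0.0367 ± 0.0321). The samples of every pair of neighbours in this order overlapped. In senescent MEFs Aspn came second at 76.5 ± 39.0 TPM, then Prelp (35.9 ± 34.8), Dcn (14.0 ± 5.39), Fmod (13.2 ± 9.41), Ogn (8.88 ± 3.32), Podn (6.52 ± 0.427), Omd (1.22 ± 0.498) and Lum (0.393 ± 0.17), and the samples of neighbours overlapped from Aspn down to Podn. In FV100 MEFs the order was Aspn (449 ± 53.8 TPM), Prelp (133 ± 77.2), Ogn (107 ± 41.4), Dcn (88.8 ± 71.3), Fmod (75.6 ± 49.9), Podn (40.4 ± 22.6), Lum (5.13 ± 1.26) and Omd (3.71 ± 1.16). Neighbours from Prelp to Podn overlapped, as did Lum and Omd. FV300 MEFs had Aspn at 485 ± 31.1 TPM, Prelp at 127 ± 48.5, Dcn at 80.1 ± 50.3, Ogn at 60.1 ± 36.9, Fmod at 42.1 ± 22.7, Podn at 37.5 ± 17.9, Omd at 5.28 ± 0.217 and Lum at 3.22 ± 3.16, again with overlap from Prelp to Podn and between Omd and Lum.

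Class I members carry chondroitin or dermatan sulfate chains or, for asporin, none. Dcn encodes decorin, which binds collagen fibrils and TGF-beta. Its level in mice 4, 5 and 6 was 1.57, 0.726 and 0.893 CPM in control and 13.1, 22.9 and 12.7 CPM in senescent MEFs. With Fucoidan-FV it was 39.2, 37.5 and 168 CPM at 100 μg/mL and 53.8, 40.3 and 133 CPM at 300 μg/mL. Control, senescent and treated samples did not overlap, and mouse 6 was the highest by far at both doses. Dcn rose with senescence (log2 fold change 3.95 ± 0.675 SE, adjusted p = 0.00215, edgeR) and again with FV100 (2.33 ± 0.599, adjusted p = 0.0477), whereas FV300 against senescent MEFs gave 2.22 ± 0.597 with an adjusted p of 0.0822. With the mouse as a block the FV100 difference was 1.94 with an adjusted p of 0.0869 and was not called. With 1 sample left out it ran from 1.24 (without FV100 mouse 6) to 2.72 and was called in 0 of 6 omissions, while the senescence difference was called in 6 of 6.

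Aspn encodes asporin, which binds collagen and can hold back TGF-beta and BMP signaling. It had 10.5, 20.9 and 25.7 CPM in control and 134, 165 and 59.8 CPM in senescent MEFs. FV100 MEFs had 454, 475 and 693 CPM and FV300 MEFs 751, 546 and 630 CPM. Control, senescent and treated samples again stood apart, while the doses overlapped each other. Aspn rose with senescence (2.65 ± 0.383, adjusted p = 0.000668), with FV100 (2.18 ± 0.374, adjusted p = 0.0081) and with FV300 (2.43 ± 0.377, adjusted p = 0.00777). It was called in 19 of 19 alternative settings for senescent against control, 17 of 19 for FV100 and 18 of 19 for FV300, and the blocked log2 fold changes were 2.68, 2.17 and 2.43. The exceptions were scalings by transcript number, with adjusted p up to 0.0968. Of the 9 genes it has the smallest share of sequence in a single transcript.

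Bgn encodes biglycan, which binds collagen and, in soluble form, Toll-like receptors 2 and 4. Its level was 4023, 4299 and 4329 CPM in control, 4555, 4582 and 2707 in senescent, 3945, 3530 and 4374 in FV100 and 5099, 4108 and 4559 CPM in FV300 MEFs. Senescent mouse 6 was the lowest sample and the groups overlapped in CPM. In TPM Bgn stood at 4392 ± 113 in control, 4416 ± 1473 in senescent, 5522 ± 362 in FV100 and 6007 ± 253 in FV300 MEFs. On that scale the treated samples lay above control without overlap. The ratio of FV100 to control means was 1.26 in TPM and 0.937 in CPM for Bgn, and 38.8 and 28.4 for Aspn. It was larger in TPM for every member, so the position of Bgn in TPM is not particular to Bgn. No comparison of Bgn passed the test, and the 95% intervals of the log2 fold change were −0.55 to 0.36 for senescent against control, −0.45 to 0.45 for FV100 and −0.24 to 0.67 for FV300 against senescent MEFs. These are the narrowest intervals of the family in each of those comparisons.

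Class II members carry keratan sulfate or none. Lum encodes lumican, which spaces collagen fibrils in cornea and skin. It was near the limit of detection in control MEFs, at 0.085, 0.0982 and 0 CPM, which stand for 2, 5 and 0 counts. It stood at 0.863, 0.388 and 0.748 CPM in senescent, 6.73, 4.32 and 8.75 CPM in FV100 and 1.12, 2.7 and 9.58 CPM in FV300 MEFs. All senescent samples lay above control and all treated samples above senescent ones, with FV300 mouse 4, a library low in genes with 1 transcript, the lowest treated sample. Lum rose with senescence (3.22 ± 0.944, adjusted p = 0.0375) and with FV100 (3.29 ± 0.8, adjusted p = 0.0399), and FV300 gave 2.73 ± 0.785 with an adjusted p of 0.0997. With the mouse as a block neither rise was called (adjusted p = 0.0638 and 0.0585). Lum passed the filter on low counts through the treated samples, and with only control and senescent MEFs compared it was not tested. Its senescence rise was called in 10 of 18 alternative settings and in 1 of 6 omissions of a sample.

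Fmod encodes fibromodulin, which binds collagen at a site shared with lumican. Control MEFs had 39.5, 35.0 and 2.30 CPM and senescent MEFs 43.9, 14.0 and 18.9 CPM. FV100 MEFs had 178, 139 and 35.0 CPM and FV300 MEFs 38.9, 107 and 57.0 CPM. Control mouse 6 was far below the others, and every pair of groups overlapped. In the design used no comparison of Fmod passed the test (log2 fold change −0.00 ± 0.784 for senescent against control, 2.19 ± 0.816 with an adjusted p of 0.152 for FV100, and 1.40 ± 0.797 with an adjusted p of 0.448 for FV300). For FV100 the 95% interval was 0.43 to 3.95. FV100 against control was called in 8 of 19 alternative settings, DESeq2 among them (2.32, adjusted p = 0.0407), and both doses were called against senescent MEFs without the filter on low counts (2.30 and 1.43).

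Prelp encodes PRELP, a member with a basic end that binds heparin and basement membrane. It had 2.17, 0.903 and 0 CPM in control and 71.5, 28.1 and 7.71 CPM in senescent MEFs. FV100 MEFs had 230, 147 and 52.4 CPM and FV300 MEFs 124, 126 and 70.7 CPM. Mouse 6 was the lowest in each group. Prelp had the largest senescence difference of the family in log2 terms (5.12 ± 0.974, adjusted p = 0.0042) and was called there in 19 of 19 alternative settings. Senescent mouse 4 overlapped the treated samples, and FV100 (2.00 ± 0.813, adjusted p = 0.189) and FV300 (1.58 ± 0.802, adjusted p = 0.378) did not pass. With the mouse as a block, however, Prelp was called for FV100 (2.24 ± 0.5, adjusted p = 0.0409), and it had an adjusted p of 0.0712 for FV300.

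Omd encodes osteomodulin, a keratan sulfate member of bone and tooth. It was low throughout, at 0.17, 0.903 and 0 CPM in control, 1.63, 1.81 and 0.849 in senescent, 2.35, 2.73 and 5.05 in FV100 and 5.93, 4.16 and 5.52 CPM in FV300 MEFs. Control mouse 5 had 41 counts in library 5(1) and 5 in library 5(2). Treated samples did not overlap senescent ones. Neither the senescence difference (1.87 ± 0.868, adjusted p = 0.194) nor FV100 (1.24 ± 0.827, adjusted p = 0.446) nor FV300 (1.86 ± 0.839, adjusted p = 0.308) passed the test, whereas both doses did against control (3.11 and 3.74). The senescence difference ran from 1.36 without control mouse 6 to 3.96 without control mouse 5, and it was called in 3 of 19 alternative settings (without control mouse 5, with library 5(2) alone for that mouse, and without the 4 libraries low in genes with 1 transcript).

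Ogn, the class III member, encodes osteoglycin, also called mimecan. It had 3.31, 22.8 and 2.11 CPM in control and 19.1, 9.61 and 19.4 CPM in senescent MEFs, where control mouse 5 lay above all senescent samples through its library 5(2). FV100 MEFs had 145, 176 and 94.2 CPM and FV300 MEFs 29.7, 117 and 110 CPM, all above the senescent samples. Ogn rose with FV100 (3.11 ± 0.764, adjusted p = 0.042), and FV300 gave 2.41 ± 0.743 with an adjusted p of 0.123. With the mouse as a block the FV100 adjusted p was 0.0606. The senescence difference was 0.75 ± 0.716, and with library 5(1) alone for control mouse 5 Ogn was called there. Counts were also scaled by share of unique sequence, an alternative chosen after the data were seen. FV100 mice 4 and 5, the libraries high in genes with 1 transcript, then stood lower, at 81.2 and 90.1 CPM. FV100 mouse 6 stood higher than before. The FV300 samples stood at 63.9, 85.4 and 98.6 CPM and the senescent samples at 16.3, 19.6 and 13.9 CPM. With this scaling Ogn was called at both doses.

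Podn encodes podocan, which is known from kidney podocytes and the vessel wall. It had 4.42, 4.77 and 1.17 CPM in control and 11.8, 11.1 and 15.4 CPM in senescent MEFs. FV100 MEFs had 35.6, 45.7 and 117 CPM and FV300 MEFs 43.5, 46.3 and 103 CPM. The 3 levels were separate, and mouse 6 was again the highest at both doses. Podn rose with senescence (1.87 ± 0.541, adjusted p = 0.0394), with FV100 (2.37 ± 0.540, adjusted p = 0.0306) and with FV300 (2.34 ± 0.539, adjusted p = 0.0439). With the mouse as a block these adjusted p were 0.0721, 0.0533 and 0.0735, and none was called.

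**Figure D3:**
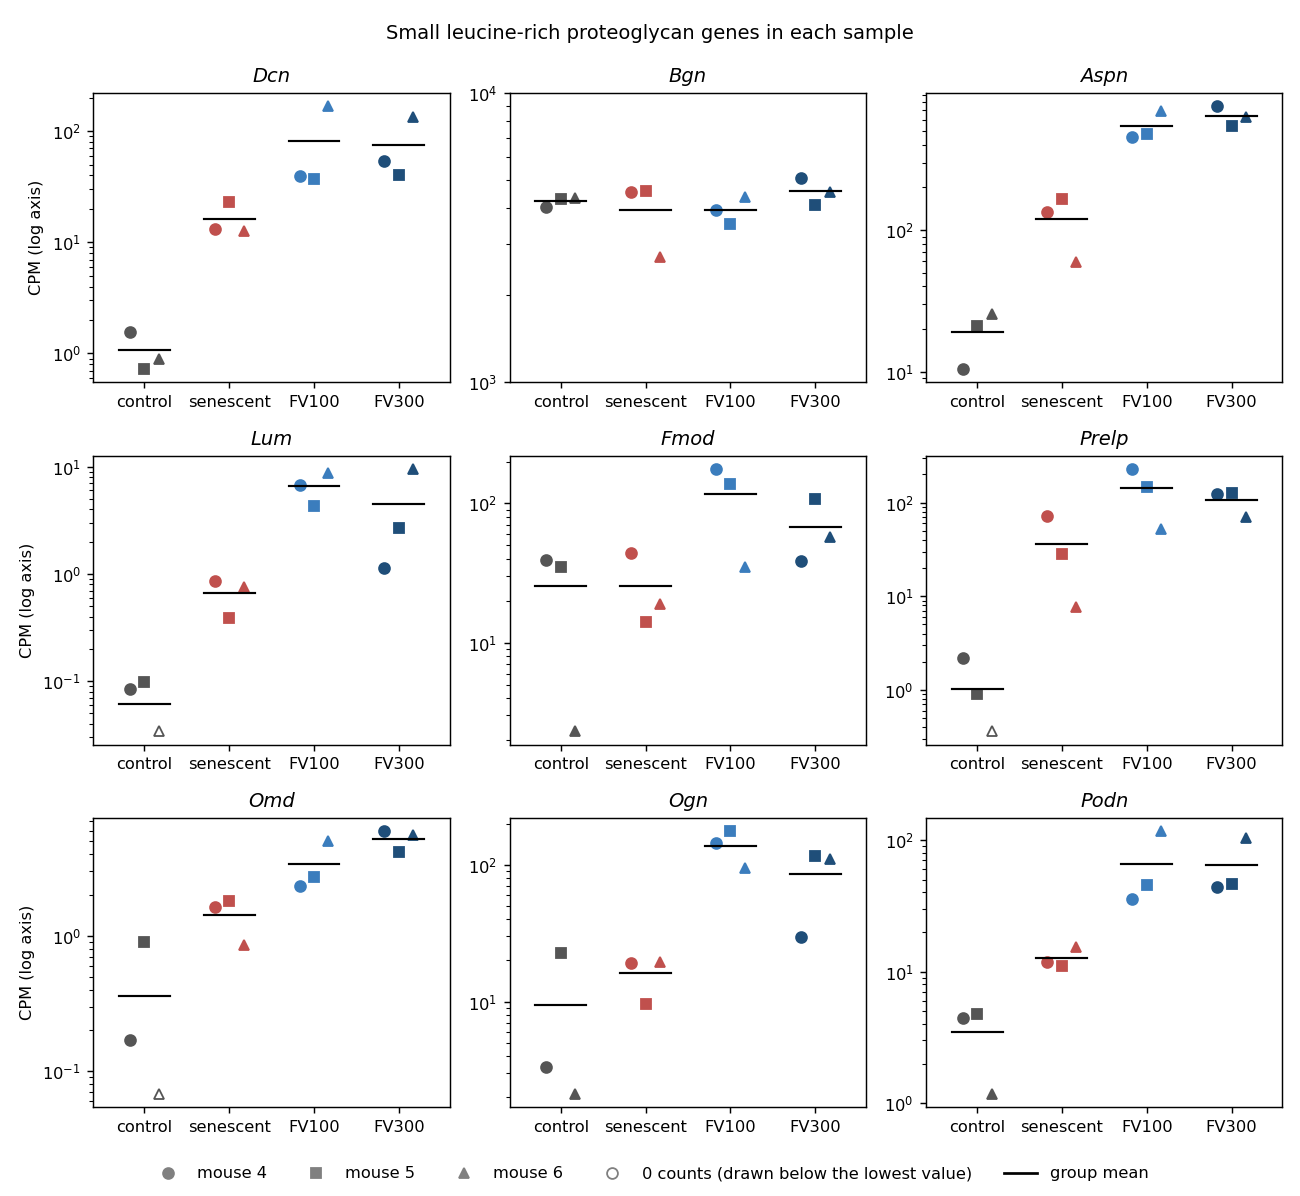
Level of each member in CPM (log axes, 1 panel per gene) in the 4 groups, with 1 marker shape per mouse, lines for the mean of 3 and open markers for samples with 0 counts. Dcn, Aspn, Lum and Podn step up from control to senescent to treated samples without overlap, Bgn stays between 2707 and 5099 CPM, and Fmod and Ogn overlap between control and senescent samples.

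Over the family, 5 of 9 members rose in senescent against control MEFs (Dcn, Aspn, Lum, Prelp, Podn) past both thresholds (adjusted p below 0.05, log2 fold change beyond 1 in size), and 0 fell. Of all genes tested, 4.47% rose. Lum counts among the 5 although it passed the filter only through the treated samples. The samples of the same 5 members lay above control without overlap, as did those of 14.2% of all genes. The median log2 fold change was 1.87 over the members and 0.07 over all genes. With the mouse as a block 3 members were called (Dcn, Aspn, Prelp). Leaving out control mouse 4 or 6 or senescent mouse 4 or 6 also left these 3.

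In FV100 against senescent MEFs 5 of 9 rose (Dcn, Aspn, Lum, Ogn, Podn) and 0 fell, where 1.1% of all genes rose. Lum counts among these 5 too, although it passed the filter only through the treated samples, in which it is high. Over all genes 165 rose and 240 fell, and with RLE factors 174 rose and 147 fell, with the same call for each member. The samples of these 5 and Omd lay above the senescent samples, as did those of 11.2% of genes, and the median was 2.19 over the members and −0.02 over all genes. The count depended on every sample. It was 1 (Aspn) without senescent mouse 4, 5 or 6 or FV100 mouse 5 or 6, 2 (Aspn, Podn) without FV100 mouse 4, and 2 (Aspn, Prelp) with the mouse as a block. Without the 4 libraries low in genes with 1 transcript, an omission chosen after the data were seen, it was 3 (Aspn, Lum, Podn). FV100 mice 4 and 5, which stood high in these genes (1.00 and 1.10 on the log2 scale), stayed in.

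In FV300 against senescent MEFs 2 of 9 rose (Aspn, Podn), where 0.752% of genes rose, and the samples of 6 members lay above the senescent ones, as did those of 9.41% of genes. The median was 2.22 over the members and 0.00 over all genes. DESeq2 called 4 (Dcn, Lum, Aspn, Podn), and the block or the omission of any 1 of the 6 samples left Aspn alone. The comparisons of each dose share the senescent samples, and the senescence comparison uses them too, so a low senescent sample raises both doses at once.

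**Figure D4:**
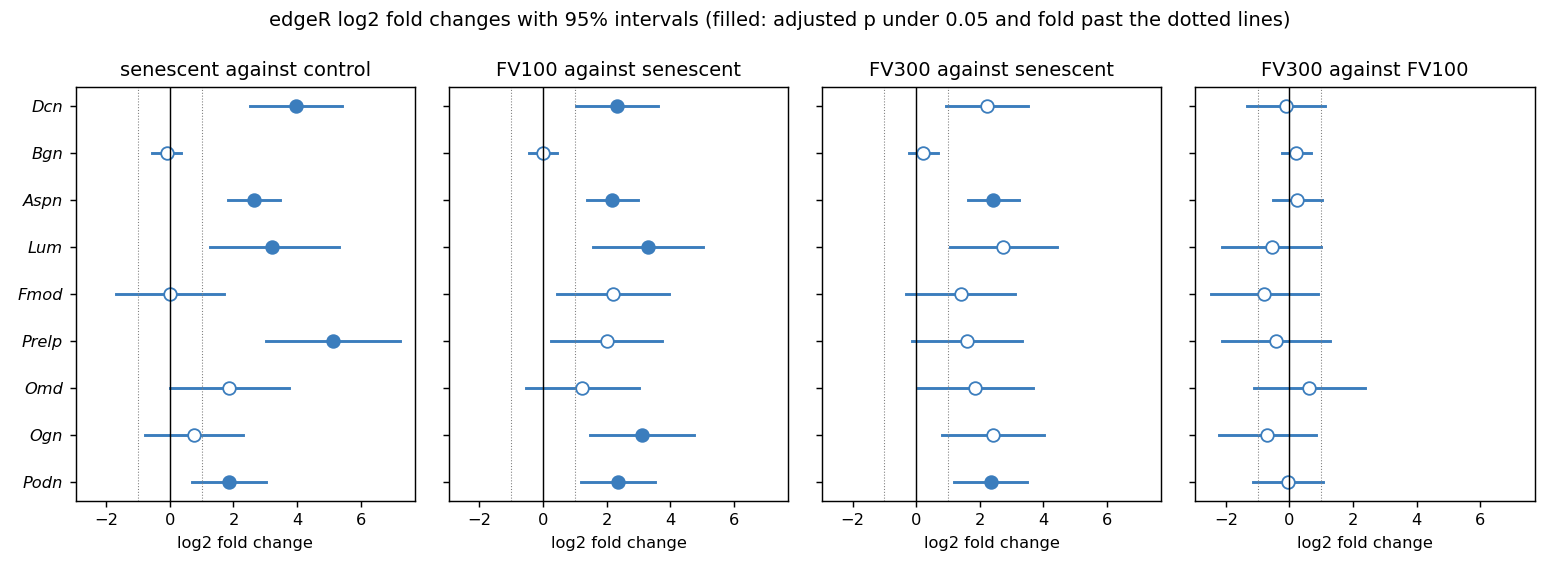
log2 fold changes from edgeR (points) with 95% intervals (lines) for the 9 members in 4 comparisons, with filled points past the thresholds (adjusted p under 0.05, and dotted lines at a log2 fold change of 1 in either direction). Filled points number 5, 5, 2 and 0 from left to right, and every interval for FV300 against FV100 includes 0.

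Both doses were also set against control MEFs. Here 7 of 9 members rose with FV100 and 7 with FV300 (every member but Bgn and Fmod), where 10.3% and 9.87% of genes rose. Lum is among the 7, although it passed the filter only through the treated samples. Log2 fold changes for these 7 ran from 3.11 (Omd) to 7.12 (Prelp) with FV100 and from 3.16 (Ogn) to 6.70 (Prelp) with FV300. Dcn stood 6.28 ± 0.737 and 6.18 ± 0.734 above control. The median was 4.24 and 4.20 over the members and 0.09 and 0.07 over all genes. Dcn, Aspn, Lum, Prelp and Podn were called in 19 of 19 alternative settings at both doses.

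Between the doses no member was called. With edgeR 0 of 9 members had an adjusted p under 0.05, 0 had an unadjusted p under 0.05, and DESeq2 also called 0, where 0.00665% of genes were called and 94 had an unadjusted p under 0.05. The 95% interval of FV300 minus FV100 on the log2 scale was −0.24 to 0.67 for Bgn, −0.52 to 1.02 for Aspn, −1.14 to 1.07 for Podn and −1.34 to 1.12 for Dcn. It was wider for Ogn (−2.22 to 0.83), Lum (−2.12 to 0.99), Fmod (−2.48 to 0.90), Prelp (−2.11 to 1.27) and Omd (−1.12 to 2.37). Differences of over 2-fold between the doses therefore lie within the interval of every member but Bgn.

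Members varied among themselves within groups too. Over the 12 samples, Pearson's r of log2(CPM + 0.5) was 0.956 between Dcn and Podn, 0.945 between Dcn and Aspn and 0.880 between the neighbours Dcn and Lum. These samples share groups and libraries, so the values are a description. After each group's mean was removed, r was 0.688 for Dcn with Podn and 0.547 for Dcn with Lum, but 0.257 for Dcn with Aspn. Fmod and Prelp, both on chromosome 1, gave 0.748, Fmod and Ogn, on different chromosomes, 0.630, and Bgn with Aspn 0.829. The neighbours Aspn and Ogn gave −0.219.

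The genes whose pattern over the 12 samples was most like a member's were found among 12646 genes with a mean of at least 1 CPM. They were Sema3b (r = 0.986), Apod (0.984) and Slc66a3 (0.982) for Dcn, Synpo (0.989), Cul9 (0.988) and Cped1 (0.985) for Aspn, and Selenop (0.983), C1qtnf2 (0.982) and Tmem14a (0.980) for Podn. For Lum they were Mmp13 (0.993), Dpt (0.983) and Ecrg4 (0.970), which, like Lum, are annotated with 1 transcript each. For Ogn they were Rgs5 (0.954), Gxylt2 (0.951) and Notch3 (0.950), and for Fmod Alg2 (0.99), Tmem43 (0.980) and Fam114a1 (0.978), with 73.7% to 95.7% of their exonic bases in 1 transcript. For Prelp they were Sumf1, Ano3 and Igsf9b (0.978 to 0.975), for Omd Pik3r4, Tmem229b and Rab3d (0.975 to 0.968), and for Bgn Dnmbp, Rsbn1 and Rnf216 (0.943 to 0.935).

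Other genes of the family, which are not members, were mostly low. Of 9 (Kera, Epyc, Optc, Chad, Chadl, Nyx, Tsku, Podnl1, Ecm2), 6 were tested and 0 were called in senescent against control or in either dose against senescent MEFs. Of all genes tested, 4.47%, 1.1% and 0.752% rose and 3.95%, 1.6% and 0.885% fell in these comparisons. A count of 0 of 6 therefore does not set these genes apart. Kera, which lies beside Lum, had a count in FV100 mouse 4 alone. Epyc, its other neighbour, had 0 counts in all control and senescent samples and so could not be called between them. It had 0.438, 0.151 and 3.08 CPM with FV100. Ecm2, the neighbour of Aspn, had 2.80 ± 2.15 CPM in senescent, 11.3 ± 5.02 in FV100 and 12.5 ± 4.67 in FV300 MEFs. The log2 fold changes of Ecm2 were 2.02 and 2.16, with adjusted p of 0.0854 and 0.103 (edgeR), and its treated samples did not overlap the senescent ones. Tsku, which encodes the secreted protein tsukushi, had 62.1 ± 3.08 CPM in control, 102 ± 2.17 in senescent and 61.0 ± 5.88 in FV100 MEFs. Its log2 fold changes of 0.71 and −0.74 had adjusted p of 0.0156 and 0.0323 but were under the threshold of 1.

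The enzymes that build chondroitin and dermatan sulfate chains were tested for 21 of 22 genes. In senescent MEFs 0 rose and 1 fell (Ust, which sulfates uronic acid, by 1.05 on the log2 scale), where 4.47% of genes rose and 3.95% fell. Csgalnact1, which starts chondroitin chains, rose with FV100 from 51.7 ± 25.9 to 219 ± 42.5 CPM (log2 fold change 2.08, adjusted p = 0.00802) and with FV300 to 212 ± 23.2 CPM (2.03, adjusted p = 0.0116). Chst15, a chondroitin sulfate sulfotransferase, rose with FV300 (1.36, adjusted p = 0.0332). With FV100 1 of 21 rose and with FV300 2 of 21, where 1.1% and 0.752% of all genes rose, with list medians of 0.17 and 0.14. Of 8 tested keratan sulfate enzymes, B4galt4 rose with senescence (1.27, adjusted p = 0.0191) and 0 were called at either dose.

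Among 12 collagen fibril genes and their partners, Col6a3, a chain of collagen VI, had a log2 fold change of −1.52 in senescent MEFs and so fell. In that comparison 1 of 12 fell and 0 rose, where 3.95% of all genes fell and 4.47% rose. With FV100 3 rose and 0 fell, where 1.1% of all genes rose and 1.6% fell. Col14a1, a collagen of the fibril surface, rose by 2.55 (adjusted p = 0.0202), Eln, which encodes elastin, by 1.90 (adjusted p = 0.0378) and Col3a1, the chain of collagen III, by 1.38 (adjusted p = 0.0164). The same 3 rose with FV300 (2.48, 2.30 and 1.17), where 0.752% of all genes rose. The list median was −0.16 with senescence, 0.59 with FV100 and 0.48 with FV300. Col1a1 and Col1a2, the chains of collagen I, were called in none of the 3 comparisons.

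Of 22 tested growth factor, receptor and innate partners of SLRPs, Bmp4 rose in senescent MEFs, from 1.40 ± 1.22 to 26.8 ± 2.18 CPM (log2 fold change 4.19, adjusted p = 0.00274). Cd44, the hyaluronan receptor, fell with FV100 from 979 ± 249 to 343 ± 42.6 CPM (−1.51, adjusted p = 0.00792) and with FV300 to 420 ± 143 CPM (−1.22, adjusted p = 0.0286), where 0.885% of all genes fell with FV300. Bmp4 and Cd44 were each 1 of 22, where 4.47% of all genes rose with senescence and 1.6% fell with FV100. The list medians were 0.28, 0.48 and 0.27 in senescent, FV100 and FV300 comparisons. The genes of TGF-beta ligands and their receptors, of Tlr2 and of Tlr4 were not called. Among them Tgfbr2 was at 1.10 with FV100 and 1.07 with FV300 (adjusted p = 0.0517 and 0.0869, edgeR). Its treated samples lay above the senescent ones. Tgfb1 was at −0.86 and −1.38 and Tlr4 at 1.06 and 0.55 at these doses.

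Of 10 tested proteases that process or degrade SLRPs, Mmp13, a collagenase, rose with senescence (2.69, adjusted p = 0.043), with FV100 from 0.722 ± 0.289 to 10.5 ± 2.86 CPM (3.84, adjusted p = 0.0112) and with FV300 (3.28, adjusted p = 0.0297). Adamts5, an aggrecanase, rose with FV100 from 36.9 ± 18.5 to 396 ± 174 CPM (3.42, adjusted p = 0.0218). With FV300 Adamts5 was not called (2.59, adjusted p = 0.0849, edgeR), though its samples lay above the senescent ones. Mmp13 and Adamts5 are annotated with 1 transcript each. Tll1, a protease of the BMP1 family, fell with senescence by 1.09 on the log2 scale. Thus 1 of 10 rose and 1 fell with senescence, where 4.47% of all genes rose and 3.95% fell. With FV100 2 rose and with FV300 1, where 1.1% and 0.752% of all genes rose. The list medians were 0.31, 0.21 and 0.17.

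Marker lists of other cell types that make SLRPs moved with the groups in part. The summed level of 4 tenocyte markers was 9.54 to 21.1 CPM in control, 22.7 to 50.9 in senescent, 45.1 to 75.3 in FV100 and 32.8 to 54.9 in FV300 samples. Scx, a tendon transcription factor, rose with senescence (1.74, adjusted p = 0.00531) and Mkx with FV100 (2.68, adjusted p = 0.0126), so 1 of 4 rose in each of these comparisons, where 4.47% and 1.1% of all genes rose. The other tenocyte markers were not called. With senescence Tnmd was at 0.48, Mkx at −0.17 and Thbs4 at −1.80 (log2 fold changes), and with FV100 Thbs4 was at 3.6, Tnmd at 1.70 (adjusted p = 0.142) and Scx at −0.52. The list medians were 0.16, 2.19 and 1.48 in senescent, FV100 and FV300 comparisons. The 6 chondrocyte markers, of which 4 were tested, summed to 618 to 873 CPM in control, 228 to 356 in senescent, 125 to 233 in FV100 and 169 to 240 in FV300 samples, most of it Col2a1, which fell by 1.41 on the log2 scale with senescence. Comp, a cartilage matrix protein, was not called but had log2 fold changes of 1.6 with senescence, 2.89 with FV100 (from 3.42 ± 2.76 to 25.4 ± 20.7 CPM, adjusted p = 0.0586) and 2.12 with FV300. Sox9, a chondrocyte transcription factor, was at −0.38, 1.21 and 0.71, also not called. In senescent against control MEFs 1 of 4 tested chondrocyte markers fell, where 3.95% of all genes fell. The chondrocyte list medians were −0.90, 0.53 and 0.53. The 6 osteoblast markers summed to 52.0 to 85.0, 27.3 to 63.1, 36.5 to 46.1 and 37.9 to 55.9 CPM in the same order, with 3 tested and 0 called.

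The 6 macrophage markers summed to 0.564 to 4.55 CPM in control, 2.91 to 16.9 in senescent, 6.26 to 14.0 in FV100 and 3.26 to 10.4 in FV300 samples, with 0 called. The 5 endothelial markers summed to 1.32 to 2.04, 1.47 to 3.30, 5.92 to 11.7 and 5.23 to 8.36 CPM. Tek rose with FV100 from 0.481 ± 0.351 to 5.87 ± 1.81 CPM (3.58, adjusted p = 0.0446). Thus 1 of 4 tested markers rose, where 1.1% of all genes rose. The other tested endothelial markers had means under 1 CPM in each group and were not called. With FV100 Pecam1 was at 1.15, Emcn at 0.93 and Kdr at −0.53 (log2 fold changes). The 6 skeletal muscle markers summed to 104 to 196, 149 to 359, 91.7 to 148 and 67.8 to 119 CPM, with 2 tested and 0 called, and the 5 epithelial markers to at most 0.719 CPM in any sample, with 0 tested. The part of other cell types in the levels of the SLRPs was not tested.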

How the data were processed

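The authors aligned the reads to GRCm39 with STAR 2.7.11b, and FastQC 0.12.1, Trimmomatic and RSEM 1.3.1 are also named in the submitters' processing notes. The deposited values are RSEM's expected counts per gene, without normalization, and TPM, which RSEM scales by gene length and library size, both as the authors deposited them. The deposited table of all libraries was not used here. How strand was set in counting is not given in the sources used here. Symbols and transcripts come from GENCODE M39 (56310 of 57010 genes matched).

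Expected counts were rounded, libraries 5(1) and 5(2) were summed, and filterByExpr (minimum count 10, minimum total 15) left 15034 genes. Differences were tested with edgeR 4.0.16 (R 4.3.3), with the quasi-likelihood test and TMM factors in 1 fit of the 4 groups, with Benjamini-Hochberg adjustment over all genes tested in each of 6 comparisons and calls at an adjusted p below 0.05 and a log2 fold change beyond 1 in size. Errors of fold changes are standard errors, and intervals are 95%. The p-values rest on the spread between cultures within groups, estimated over all 4 groups together and moderated across genes. The CPM printed are counts per 1000000 of the library after TMM scaling. TPM of 5(1) and 5(2) were averaged.

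The members, lists, tests and alternatives were chosen with earlier results of these data known. All members are named, with up to 3 called genes per list and comparison of largest change and at least 1 CPM in the higher group, and the 3 genes most like each member; genes of the family outside the members, Col1a1, Col1a2, Comp, Sox9, Tnmd, Thbs4, comparisons of Scx and Mkx without a call, and the senescence value of Mmp13 (0.722 CPM in its higher group) were named after their values were seen. Values of Tgfb1, Tgfbr2 and Tlr4 and the FV300 value of Adamts5 were likewise added after they were seen. The labels give a mouse number to each sample, and the settings with a block took samples with 1 number as paired on that label. The deviations of same-numbered samples from their group means correlated with a median r of −0.00627 (−0.204 to 0.425) over 18 pairs, with 8 over 0.1. These values do not show the pairing. They cannot exclude it either, because the libraries that stood apart enter the same deviations. The main design left the pairing out.

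Alternatives were RLE factors, DESeq2 1.42.0, the 2 groups alone, no filter beyond 1 count, either library of control mouse 5 alone, the replicate block, scaling by transcript number with and without the block, the adjusted p alone, and each sample left out. Chosen after the data were seen were scaling by unique sequence (TMM factors within 6 classes of genes by the share of exonic bases in 1 transcript), with and without the block, and the omission of the 4 libraries whose median over genes with 1 transcript lay under −0.9. Promoter windows are those of RefSeq on GRCm38.p6.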

Additional observations from a re-analysis of the deposited data

How the results depend on the processing

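The count of members called in senescent against control MEFs was 5 in the design used. With only the 2 groups compared it was 3 of 8 members tested, as Lum did not pass the filter. It was 3 with the replicate block, and 3 to 5 with 1 sample left out. For FV100 against senescent MEFs the count of 5 became 2 with library 5(2) alone, 2 with the replicate block, 2 with scaling by transcript number and the replicate block, 3 without the 4 libraries low in genes with 1 transcript, and 1 to 2 with 1 sample left out. For FV300 against senescent MEFs the count of 2 became 4 with DESeq2, 7 without the filter, 4 with scaling by unique sequence, 1 with the replicate block, 1 without the 4 libraries, and 1 with any 1 sample left out. In the paired design with scaling by unique sequence the counts were 4, 4 and 3. The cause of these changes was not tested, except that fewer samples were used where samples were left out. FV300 against FV100 gave 0 members in every setting, and each dose against control 6 to 8.

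Reversed signs occurred in values that were not called. Fmod in senescent against control MEFs (−0.00) was 0.0269 with DESeq2, 0.0247 with RLE factors, 0.0335 with only the 2 groups, 0.63 with library 5(1) alone, 0.41 with the replicate block, 0.29 with scaling by transcript number and the block, 0.17 with scaling by unique sequence and 0.44 with that and the block, and ran from −0.65 to 0.47 with 1 sample left out. Ogn in that comparison was −0.16 with library 5(2) alone and −0.43 without the 4 libraries, and Bgn ran from −0.23 to 0.12 with 1 sample left out. Bgn ran from −0.0811 to 0.29 for FV100 against senescent and from −0.18 to 0.0878 for FV100 against control MEFs with 1 sample left out, and the latter was 0.0158 with scaling by transcript number, 0.017 with that and the block, 0.0445 with scaling by unique sequence, 0.0457 with that and the block and 0.0377 without the 4 libraries. For FV300 against FV100 with 1 sample left out, Dcn ran from −0.79 to 0.98, Podn from −0.55 to 0.67 and Prelp from −0.81 to 0.10. Without the 4 libraries Dcn was 0.0574 and Podn 0.15, Podn was 0.0005 with the replicate block, and Prelp was 0.069 with scaling by transcript number and the block, 0.13 with scaling by unique sequence and 0.17 with that and the block.

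Over all genes, 1266 were called in senescent against control MEFs (672 higher) and 699 with only the 2 groups compared (249 higher). For FV100 against senescent MEFs 405 were called, with 165 higher and 240 lower. The number was 770 with DESeq2 (480 higher), 800 without the filter (534 higher), 321 with RLE factors (174 higher), 168 with only the 2 groups (93 higher), 445 with scaling by unique sequence (248 higher) and 136 to 365 with 1 sample left out. The scaling thus turned the split of all calls, while Dcn, Lum, Ogn, Aspn and Podn were the members called with RLE factors, DESeq2 and scaling by unique sequence too. For FV300 against senescent MEFs 246 were called (113 higher), 606 with DESeq2, 580 without the filter (328 higher), 384 with scaling by unique sequence, 101 with only the 2 groups (56 higher), 118 without the 4 libraries (67 higher) and 46 with FV300 mouse 6 left out. FV300 against FV100 gave 1 gene and 0 to 2 in the alternatives. Lum in control MEFs (0 to 5 counts a mouse) and Omd and Prelp there are limited by depth, and their folds against control depend on few counts. With 3 mice a group, values that did not pass may still differ.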
